A study of Rattus norvegicus with 3 samples.

Results

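Connexins are membrane proteins that assemble into rings, and the rings of touching cells dock to form the channels of a gap junction, through which ions and small metabolites pass. In the spinal cord, astrocytes are coupled to each other and to oligodendrocytes by such channels, and connexins also join cells of the meninges, of vessel walls and, at electrical synapses, of neurons. Each cell type has its own set of them, so their transcripts carry information on where RNA came from as well as on coupling. The 9 connexin genes described here are GJA1, GJA4, GJA5, GJB1, GJB2, GJB6, GJC1, GJC3 and GJD2, chosen by symbol as the connexins of glia, meninges, vessels and neurons. Of these, 7 have an entry among the 12758 gene symbols of the deposited table, and GJA5 and GJD2 have none, under their symbol or a RefSeq synonym.

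The RNA came from female Sprague Dawley rats that were 3 months old, in which a laminectomy at thoracic level 9 was performed alone (No-SCI) or with an impactor contusion of the exposed cord (SCI). Both groups thus share the laminectomy. About 2 mm of cord at level 8, just rostral to the contusion, was taken 24 h later and digested at 6°C with a protease that works in the cold, the cells were spun down, and the supernatant, regarded in the study as rich in axons, was sequenced after removal of ribosomal RNA. GEO's labels give 2 No-SCI libraries and 1 SCI library, while the study's methods state 2 animals per condition.

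Each gene has 1 authors' FPKM value for No-SCI and 1 for SCI, where FPKM is the number of fragments scaled by transcript length and by library size. No value of a single library was used here, so neither animal-to-animal spread nor sequencing depth can be read from it, and no SD, interval or test between groups can be given. Values are therefore described by their size alone. A gene is called higher or lower when its group values differ at least 2-fold, a log2 ratio of SCI to No-SCI of at least 1 in size. By this rule 1012 of all genes (7.93%) were higher and 1538 (12.1%) lower after SCI, and 1216 were higher and 1224 lower once the median log2 ratio of all genes, −0.12, was centred at 0. No value in the table lies below 1, so a ratio of genes near that level is the least certain.

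In No-SCI the 7 listed connexins spanned a wide range. GJB1 had the highest value, 138 FPKM, followed by GJC1 with 133, GJA1 with 92.3 and GJB6 with 41.7 FPKM. The other 3 were under 10 FPKM, with 9.82 for GJC3, 3.40 for GJA4 and 2.80 for GJB2. After SCI the order was GJB1, GJB6, GJA1, GJC1, GJB2, GJA4 and GJC3. GJB6 thus moved ahead of GJA1 and GJC1, and GJB2 ahead of GJA4 and GJC3. The top 2 of No-SCI, GJB1 and GJC1, differed by a factor of only 1.03, and without replicates it cannot be said which neighbours in either order differ beyond their spread.

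**Figure D1:**
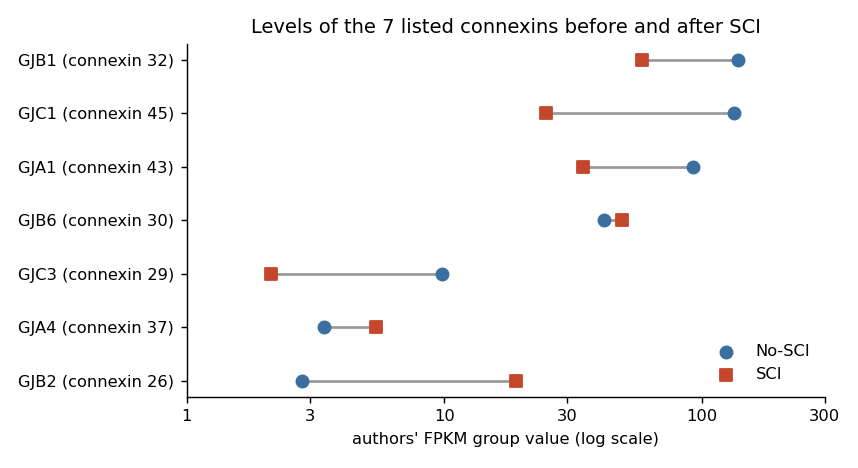
Authors' FPKM group values of the 7 listed connexins on a log scale, with 1 circle for No-SCI and 1 square for SCI per gene and no error bars because no value per library was used. GJB1, GJC1, GJA1 and GJC3 lie further left after SCI, GJB2 lies far to the right, and GJB6 and GJA4 stay within 2-fold.

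By the 2-fold rule 4 connexins were lower after SCI, 1 was higher and 2 were neither. Those lower were GJC1, GJC3, GJA1 and GJB1, with log2 ratios of −2.43, −2.21, −1.42 and −1.23. GJB2 was higher, with a log2 ratio of 2.76, and GJA4 and GJB6 lay between the limits at 0.67 and 0.23. Among all genes, 12.1% were lower and 7.93% higher, and the median log2 ratio of the 7 connexins was −1.23 against −0.12 for all genes. With a 3-fold minimum, which 3.27% of all genes passed as lower and 3.17% as higher, GJC1 and GJC3 stayed lower and GJB2 higher. With a 1.3-fold minimum, which 35.7% and 24.6% of all genes passed, GJA4 joined GJB2 as higher and the same 4 genes were lower. In bulk RNA of a supernatant such as this, fewer cells of a type, less RNA per cell and less RNA reaching the supernatant cannot be told apart.

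**Figure D2:**
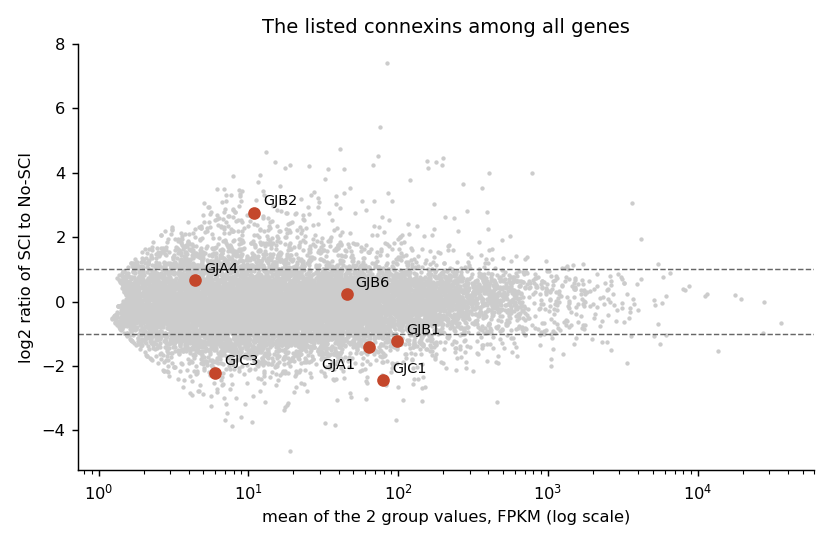
Log2 ratio of SCI to No-SCI against the mean of the 2 group values on a log scale, with 1 grey point per gene and the 7 listed connexins in red. The dashed lines mark the 2-fold limits, and 4 connexins lie below the lower one and GJB2 above the upper one.

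Upstream sequence is shown for 5 of these genes, the astrocyte pair GJA1 and GJB6, the oligodendrocyte pair GJB1 and GJC3, and GJB2, because genes of the same cells moved apart in the astrocyte pair and in one direction in the oligodendrocyte pair, and GJB2 was the 1 gene higher. Each is the 250 bases just before a RefSeq start site on the rat assembly GRCr8, whereas the FPKM values were made on the rn6 assembly, and is written 5′ to 3′ on the gene's strand. Capitals mark letters searched on both strands, namely TGANTCA (the AP-1 motif), GGGCGG (the GC box), ACAAT (the core of SOX motifs) and TTAAAA (resembling a TATA box). TTAAAA was added to the search after the sequences had been read.
GJA1, chr20:36302314-36302563, plus strand: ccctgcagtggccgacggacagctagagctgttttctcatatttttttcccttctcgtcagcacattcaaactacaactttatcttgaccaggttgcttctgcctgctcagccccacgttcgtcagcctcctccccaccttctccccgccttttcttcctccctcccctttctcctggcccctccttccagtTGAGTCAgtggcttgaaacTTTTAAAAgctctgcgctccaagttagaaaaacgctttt
GJB6, chr15:35410139-35410388, minus strand: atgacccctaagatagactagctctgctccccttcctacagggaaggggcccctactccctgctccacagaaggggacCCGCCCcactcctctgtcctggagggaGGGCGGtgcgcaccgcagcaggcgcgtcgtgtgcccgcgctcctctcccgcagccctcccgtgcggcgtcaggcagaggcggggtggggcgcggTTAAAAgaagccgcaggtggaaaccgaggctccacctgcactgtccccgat
GJB1, chrX:70541595-70541844, plus strand: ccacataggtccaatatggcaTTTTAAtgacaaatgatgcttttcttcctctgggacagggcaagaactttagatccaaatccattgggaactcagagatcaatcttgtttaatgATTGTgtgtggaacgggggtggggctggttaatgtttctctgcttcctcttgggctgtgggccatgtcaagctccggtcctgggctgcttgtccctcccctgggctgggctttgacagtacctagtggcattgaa
GJC3, chr12:22024568-22024817, minus strand: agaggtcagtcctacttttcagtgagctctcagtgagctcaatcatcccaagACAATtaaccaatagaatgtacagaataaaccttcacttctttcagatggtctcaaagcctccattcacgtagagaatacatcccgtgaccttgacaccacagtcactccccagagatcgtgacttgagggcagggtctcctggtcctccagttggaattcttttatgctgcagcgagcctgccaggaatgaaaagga
GJB2, chr15:35381954-35382203, minus strand: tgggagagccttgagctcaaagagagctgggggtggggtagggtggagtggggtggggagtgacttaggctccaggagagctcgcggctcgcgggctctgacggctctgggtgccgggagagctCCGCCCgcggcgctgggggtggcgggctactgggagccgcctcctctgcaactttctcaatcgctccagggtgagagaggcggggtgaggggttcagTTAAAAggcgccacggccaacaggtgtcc

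The AP-1 letters occur in the GJA1 window, from 58 to 52 bases before the start, and in none of the other 4, and 6.34% of all 33469 windows of this length in the RefSeq table hold them. GC boxes occur 2 times in GJB6 and 1 time in GJB2, against 30.5% of all windows with at least 1. ACAAT occurs 1 time each in GJB1 and GJC3, and 10049 of all windows hold it. TTAAAA lies within the last 60 bases before the start in GJA1, GJB6 and GJB2, and far upstream in GJB1, and 19.0% of all windows hold it. In GJA1 its forward and reverse matches overlap. The G and C content was 67.2% in GJB2 and 68.0% in GJB6, above the median of 51.2% over all windows, and 47.2% in GJC3. The table has a second start for GJB6, not shown, so the GJB6 matches above belong to 1 start alone. The window of the second start has a G and C content of 51.2%, 1 GC box and no TTAAAA. These matches describe letters in a window and were not tested as binding sites.

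GJA1, the gene of connexin 43, is the main connexin of astrocytes and is also made by meningeal cells. Its value was 92.3 FPKM in No-SCI against 34.5 after SCI, 2.67-fold lower, and 4.70% of all genes had a smaller log2 ratio. GJB6, the gene of connexin 30, is the second astrocyte connexin and appears in mature grey matter astrocytes and in the meninges. It was at 41.7 FPKM in No-SCI against 48.9 after SCI, a 1.17-fold difference that does not reach the rule. The ratio of GJA1 to GJB6 was thus 2.21 in No-SCI and 0.706 after SCI, so the more abundant member of the pair changed places.

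A list of 28 astrocyte markers that holds neither connexin has 20 genes with an entry. Of these 10 were lower and 2 higher by the 2-fold rule, the median log2 ratio was −0.93, and the summed value was 15462 FPKM in No-SCI against 9926 after SCI. Its most abundant genes are GLUL, the glutamine synthetase of astrocytes, with 5858 FPKM in No-SCI against 5624 after SCI, and NDRG2, with 8001 and 3228 FPKM. NTSR2, a neurotensin receptor, had 354 and 241 FPKM. GFAP, AQP4, SLC1A3, ALDOC, S100B, HEPACAM, SLC6A11 and CHRDL1 have no entry, so the defining astrocyte genes are only partly covered. GJA1 lay 0.48 below the list median on the log2 scale, with 14 of the 20 markers above it. GJB6 lay 1.16 above the median, and HTRA1, ID3 and F3, named after their values were seen, were the 3 markers with a larger log2 ratio. Set against the list's mean rather than its median, GJB6 was 0.92 above. The part of the astrocyte markers in either connexin's change was not tested.

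**Figure D3:**
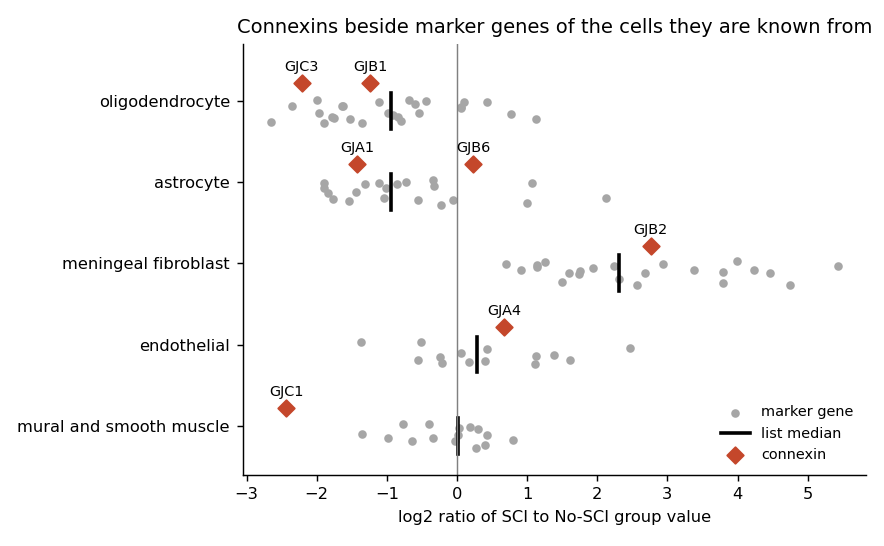
Log2 ratios of SCI to No-SCI for marker genes of 5 cell types (grey points, with a black bar at the list median) and for the connexins known from those cells (red diamonds). GJA1, GJB1, GJB2 and GJA4 lie within 0.5 of their list median, while GJB6 lies to the right of its list median and GJC1 and GJC3 to the left of theirs.

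GJB1, the gene of connexin 32, is found in oligodendrocytes and in Schwann cells, where it links layers of the same myelin sheath. Its value was 138 FPKM in No-SCI, the highest of the connexins, and 58.6 FPKM after SCI, still the highest, a 2.35-fold lower value. GJC3, the gene of connexin 29 in rodents, lies in the innermost myelin membrane that faces the axon and is not known to form channels between cells. It was at 9.82 FPKM in No-SCI against 2.12 after SCI, 4.63-fold lower. The value after SCI lies close to 1, the lowest in the table, and the log2 ratio of GJC3 was −1.79 when 1 was added to both values and −2.97 when 1 was taken away from both. GJB1 was 14.02 times as abundant as GJC3 in No-SCI and 27.6 times after SCI.

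The 27 oligodendrocyte markers have 26 genes with an entry, of which 12 were lower and 1 higher, with a median log2 ratio of −0.95 and a summed value of 96195 FPKM in No-SCI against 54805 after SCI. MBP, a defining gene of myelin, has no entry. The most abundant are MOBP, a myelin protein, with 44200 FPKM in No-SCI against 27648 after SCI, BCAS1, with 36068 and 18311 FPKM, and APOD, with 4973 and 5159 FPKM. GJB1 lay 0.29 below this median, with 11 markers below it and 15 above. GJC3 lay 1.26 below it, with 2 markers below it and 24 above.

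Because Schwann cells of spinal roots also make GJB1 and GJC3, their markers were set beside both genes. Of 8 such markers 7 have an entry, 3 of them higher and none lower by the 2-fold rule. DRP2, a protein of the Schwann cell membrane, was at 29.4 FPKM in No-SCI against 16.3 after SCI, and GLDN, which helps to assemble nodes of Ranvier, at 15.3 and 14.2 FPKM. The list had a median log2 ratio of 0.60, and GJB1 and GJC3 lay below all 7 genes. The part of either cell type in the values of GJB1 and GJC3 was not tested.

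GJB2, the gene of connexin 26, is made in the leptomeninges and at a low level in some astrocytes. It was the connexin with the lowest No-SCI value, 2.80 FPKM, and had 18.9 FPKM after SCI, a 6.77-fold higher value. Only 79 genes in the table, itself included, had a log2 ratio as large or larger. Its share of the summed FPKM of the 7 connexins was 0.664% in No-SCI and 9.81% after SCI. GJB6, its neighbour among protein coding genes in the RefSeq annotation, was 14.9 times as abundant in No-SCI and 2.58 times after SCI. The log2 ratio of GJB2 ran from 2.39 to 3.32 over the settings tried.

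Markers of meningeal fibroblasts moved in the direction of GJB2. Of 27 such markers 23 have an entry, and 21 were higher and none lower by the 2-fold rule. The median log2 ratio was 2.31 and the summed value 205 FPKM in No-SCI against 2204 after SCI. The most abundant are MGP, a matrix protein that inhibits calcification, with 47.5 FPKM in No-SCI against 757 after SCI, CRABP2, a carrier of retinoic acid, with 17.3 and 382 FPKM, and PTGDS, a prostaglandin D synthase, with 16.2 and 224 FPKM. SLC22A6, SLC47A1, DPP4 and TBX18 have no entry. GJB2 lay 0.45 above the list median, with 14 markers below it and 9 above, a difference that turned negative when 1 was taken from every value or genes with a mean under 5 FPKM were left out. GJA1 and GJB6, which meningeal cells also make, had smaller log2 ratios than every one of the 23 genes. How much of the difference in GJB2 goes with the amount of meningeal RNA was not tested.

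GJC1, the gene of connexin 45, is known from smooth muscle of vessel walls and from the heart. It had the largest drop of the 7 connexins, from 133 FPKM in No-SCI to 24.7 FPKM after SCI, a 5.40-fold lower value, and 0.486% of all genes had a smaller log2 ratio. Its share of the summed connexin FPKM went from 31.7% to 12.8%. Of 16 markers of mural and smooth muscle cells, 15 have an entry and NOTCH3 has none. None of the 15 was higher and 1, ABCC9, named after its values were seen, was lower by the 2-fold rule, and the median log2 ratio was 0.01. TAGLN, a smooth muscle actin-binding protein, was at 383 FPKM in No-SCI against 517 after SCI, MYLK, the myosin light chain kinase, at 38.9 and 22.7 FPKM, and SMTN at 16.6 and 21.9 FPKM. GJC1 lay below all 15 of them, 2.44 under the median. Its No-SCI level also stands 39.2 times above that of GJA4, the other vascular connexin, and 4.56 times above it after SCI. Skeletal muscle markers moved in the direction of GJC1, with 9 of the 11 that have an entry lower and none higher. Their sum was 448 FPKM in No-SCI against 55.9 after SCI. MYH1 and MYH2, named after their values were seen, carry the same values, 2.71 FPKM in No-SCI and 1.18 after SCI. This pair of values thus enters the count, the sum and the list median 2 times. The lower direction was not particular to muscle. The oligodendrocyte, astrocyte, neuronal and ependymal lists also had negative median log2 ratios, of −0.95, −0.93, −0.60 and −0.41, while the remaining lists had positive ones. The part of any of these cell types in the value of GJC1 was not tested.

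GJA4, the gene of connexin 37, joins endothelial cells of arteries, as does GJA5, which has no entry. GJA4 was at 3.40 FPKM in No-SCI against 5.42 after SCI, a 1.59-fold higher value that does not reach the rule. Among 22 endothelial markers 14 have an entry, with 5 higher, 1 (SLCO1A4, named after its values were seen) lower and a median log2 ratio of 0.28. Their most abundant genes are ERG, an endothelial transcription factor, with 20.8 FPKM in No-SCI against 45.5 after SCI, EGFL7, with 13.1 and 28.2 FPKM, and CLDN5, a tight junction protein, with 16.2 and 13.7 FPKM. GJA4 lay 0.39 above the median, with 9 markers below it and 5 above. PECAM1, TEK, TIE1, BMX, EFNB2, SEMA3G, HEY1 and DLL4 have no entry. GJD2, the gene of connexin 36 at electrical synapses of neurons, has no entry either, while 18 of 21 neuronal markers do, with 5 lower, none higher and a median log2 ratio of −0.60.

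Over the 7 connexins the summed value was 421 FPKM in No-SCI against 193 after SCI. GJB1, GJC1 and GJA1 made up 32.7%, 31.7% and 21.9% of it in No-SCI, and 30.3%, 12.8% and 17.9% after SCI. GJB6 went from 9.92% to 25.3%, and thereby from the fourth to the second largest share. Among relatives outside these genes, GJB5, known from skin, was at 1.29 FPKM in No-SCI against 3.28 after SCI, a log2 ratio of 1.34 at levels near the lowest of the table.

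**Figure D4:**
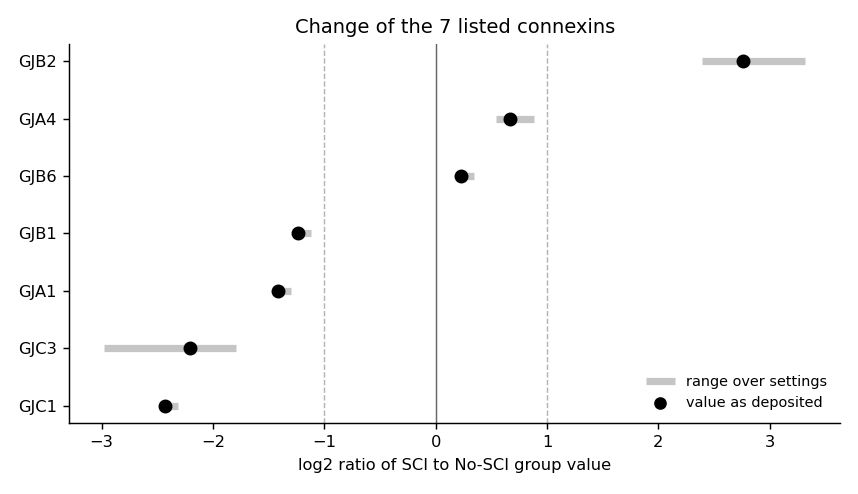
Log2 ratio of SCI to No-SCI for the 7 listed connexins, with 1 point per gene. Grey bars give the range over pseudocounts, scalings and the other settings tried, and the dashed lines mark the 2-fold limits, which no bar crosses.

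Pannexins form channels of a similar shape that open to the outside of the cell, among other things for the release of ATP. PANX1 was at 2.55 FPKM in No-SCI against 7.34 after SCI, a log2 ratio of 1.52, which makes it higher by the 2-fold rule. PANX2 was at 39.4 and 52.0 FPKM, a log2 ratio of 0.40 that does not pass, and PANX3 has no entry.

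Genes that anchor, traffic or modify connexins were taken from a list of 26, of which 25 have an entry. None was higher and 7 (28.0%) were lower by the 2-fold rule, against 12.1% lower among all genes, and the list median was −0.43. TJP1 (ZO-1), a scaffold that binds the tail of connexin 43, was at 247 FPKM in No-SCI against 100.1 after SCI and thus lower by the rule. TJP3 was at 6.92 and 9.77 FPKM. CAV2, a caveolin, was at 71.7 and 20.1 FPKM, while CAV1 was at 219 and 162 FPKM and did not pass. CNST, a connexin trafficking receptor, was at 18.6 and 9.25 FPKM, a log2 ratio of −1.01. EPS15, an endocytic adaptor, had a log2 ratio of −1.75, VCL (vinculin) one of −1.15, and PRKCA, a protein kinase C, one of −1.08. With the median log2 ratio of all genes centred at 0, CNST and PRKCA had −0.89 and −0.97 and did not pass, which left 5 (20.0%) lower against 9.59% among all genes.

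The other 18 partners stayed within the 2-fold limits. Kinases that phosphorylate connexin 43 were among them, with log2 ratios of −0.69 for SRC, −0.25 for CSNK1D, −0.23 for PRKCD and −0.76 for MAPK3. The ubiquitin ligases NEDD4 and SMURF2 had −0.35 and −0.27, and TSG101 and HGS, which sort connexins to lysosomes, −0.12 and −0.67. The adhesion and cytoskeletal genes CDH2, CTNNB1, MAPRE1, RHOA and DBN1 had −0.66, −0.56, −0.27, −0.19 and 0.51. ERP29, a chaperone of connexin 43 in the endoplasmic reticulum, had 0.23, and CCN3, which binds connexin 43, had 0.43 at levels of 2.45 and 3.32 FPKM. PRKCE has no entry.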

How the data were processed

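The authors depleted ribosomal RNA, made stranded total RNA libraries, reduced every sample to the read number of the smallest, aligned to rn6 with STAR 2.5.4b and estimated 1 FPKM value per group with Cuffdiff (version 1.3.0 in the submitters' processing notes) and upper quartile normalization. The deposited table holds these FPKM values for 12771 entries, and for 13 symbols listed more than once, none a connexin, the entry of larger mean was taken. It also holds the authors' own fold changes, p-values and q-values, which were not used. Since it gives no counts and no value per library, the log2 ratio without a pseudocount was computed, and a 2-fold minimum took the place of a test. The connexins, the 10 marker lists and the settings were chosen with earlier results of these data known. Named genes, some of which are not reported here, are the connexins, pannexins and partners, the 3 most abundant genes of the lists set beside a connexin, marker genes without an entry, and the genes nearest to each connexin in both log2 values. The lists of ependymal cells, microglia and macrophages and skeletal muscle had median log2 ratios of −0.41, 0.13 and −2.09. Names and upstream sequences came from RefSeq (GRCr8), where 8 of the 9 connexins have a start site entry. GRCr8 coordinates apply to the sequences alone. The call steps were tested on simulated data. Python 3.11.15, numpy 2.4.6, pandas 2.3.3 and matplotlib 3.10.9 were used.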

Additional observations from a re-analysis of the deposited data

How the results depend on the processing

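Pseudocounts of 1 and 0.1, 1 subtracted from every value, median centring, scaling to the same total or upper quartile, a mean of at least 5 FPKM and the smaller of duplicate entries left the sign and the 2-fold call of the 7 connexins as they were wherever each gave a value; GJA4, with a mean under 5 FPKM, drops out under the mean minimum. With a fold minimum of 1.3, 2 connexins were higher, GJA4 joining GJB2, and 7701 genes passed in either direction instead of 2550. With a fold minimum of 3, 2 connexins were lower, GJC1 and GJC3, and 821 genes passed. The difference of GJC3 from its list median was −0.86 with a pseudocount of 1, and that of GJB2 was −0.08 with 1 subtracted and −0.17 with the mean minimum, both of the latter reversed in sign. List medians moved to 1.34 (Schwann cell, 1 subtracted) and, with the mean minimum, to 1.12 (endothelial), −0.37 (mural and smooth muscle) and −0.11 (Schwann cell). The list counts given above, recomputed under the same settings as an addition chosen after seeing the data, stayed within 1.5 times, with these exceptions. With 1 subtracted, 8 neuronal markers were lower instead of 5, 2 endothelial markers instead of 1 and 2 mural markers instead of 1, and 1 mural marker was higher. With the mean minimum, no endothelial or mural marker was lower, and 1 of 3 Schwann cell markers was higher, while PANX1 drops out. Median centring left 8 astrocyte markers lower instead of 10 and gave 9.53% of all genes as higher and 9.59% as lower, so that 49.8% of the genes passing were higher instead of 39.7%. No paired analysis was possible because the groups share no replicate number and the table gives 1 value per group, and for the same reason no replicate could be left out.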

Other observations

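Likeness was measured as the distance between genes in log2 No-SCI and log2 SCI, over these 2 group values alone, so many genes can lie close without more in common. Among all genes, SEC14L2 and DCLK2 lay nearest to GJA1 (0.0035 and 0.03), OSBPL1A and MAN1B1 to GJB1 (0.03 and 0.03), CTCF and TXNDC12 to GJB6 (0.01 and 0.03), and TLNRD1 and MID1 to GJA4 (0.02 and 0.03). GJB2 had CD55 and FOXS1 as nearest genes (0.06 and 0.13), GJC1 had MX2 and AATK (0.10 and 0.11), and GJC3 had CORO6 and MOAP1 (0.13 and 0.15). Within 0.1 lay 22 genes for GJB6 and none for GJC1 or GJC3.

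Among marker genes of the lists, GJB1 lay nearest to the oligodendrocyte genes MOG (0.12) and CAR2 (0.38), and GJA1 to the astrocyte genes PPP1R3C (0.27) and ATP1B2 (0.36). GJB2 lay nearest to SOX18 of the endothelial list (0.29) and COL3A1 of the meningeal list (0.77). GJC1 lay nearest to OPALIN, an oligodendrocyte gene (0.40), and ATP1B2 (0.49), with no mural gene among the nearest 2. GJB6 lay nearest to OLIG1 (0.26) and HAPLN2 (0.40), both of the oligodendrocyte list. The nearest to GJA4 were EGR2 of the Schwann cell list (0.21) and KCNJ8 of the mural list (0.30), and to GJC3 TNNI2 of the skeletal muscle list (0.42) and ALDH1L1 of the astrocyte list (0.57).

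GJB1, GJB2 and GJC1 have 7 significant digits in at least 1 of their group values, while the other 4 connexins have at most 6, and 58.6% of all genes have more than 6 in at least 1 value. Why some values are longer is not given in the sources used here.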
